A study of Mus musculus with 4 samples.

Results

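The extracellular matrix genes examined here encode the collagens, laminins, fibronectin, nidogens, perlecan, agrin and SPARC, together with the integrins that bind these proteins at the cell surface. They were taken by symbol from the protein-coding rows of a table of 51826 genes: every collagen alpha chain, laminin chain and numbered integrin subunit, plus Itgav, Fn1, Nid1, Nid2, Hspg2, Sparc and Agrn, which gave 82 genes. The measurements came from mouse C57BL/6 embryonic stem cells driven towards mesoderm, with 2 Stk40-/- libraries and 2 wild-type libraries collected at day 3. Stk40 encodes a pseudokinase, and the series asks how its loss bears on the c-JUN protein and on mesoderm formation. Every culture was given 10 ng/ml of BMP4 during the first 2 days, and on the last day CHIR99021, which inhibits GSK3, at 1 uM in 0.5% DMSO. Before differentiation the stem cells had been kept on inactivated mouse embryonic fibroblast feeders, which were removed by a passage onto gelatin. The labels do not state whether a genotype was represented by more than 1 line or clone, so a difference between the genotypes cannot be told apart from one between lines.

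Basement membranes are thin sheets of matrix laid down beneath epithelia and around the epiblast. Laminin trimers, each of an alpha, a beta and a gamma chain, and type IV collagen form separate networks in them, which nidogens and perlecan connect. Fibrillar collagens and fibronectin make up the looser matrix of mesenchyme, and fibronectin is laid down along migrating mesoderm in the mouse embryo. Integrins are dimers of an alpha and a beta subunit: alpha3, alpha6 and alpha7 with beta1 bind laminins, alpha5 and alphav bind the RGD motif of fibronectin and related proteins, and alpha1, alpha2, alpha10 and alpha11 bind collagens.

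Values are in TPM, a unit normalised to transcript length and to the total of each library, so levels can be set against each other between genes. Means are given ± SD with n = 2 per group. Fold changes are differences of mean log2(TPM + 1), Stk40-/- minus wild type, a scale that understates differences of low genes. Separate cultures are not mentioned in the labels, so the spread against which a p-value is set is that of these libraries and may be technical. Read depth cannot be recovered from TPM, and the counting error behind each level is unknown. In these bulk samples, fewer cells of a type and less RNA per cell cannot be told apart.

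The targeted gene matched the labels: Stk40 was at 3.54 and 3.17 TPM in the Stk40-/- libraries, against 28.9 and 39.9 TPM in the wild-type libraries. Markers of the labelled mesoderm-like state were present only in part. T, the brachyury factor of the primitive streak, was at 355 and 217 TPM in Stk40-/- and at 1025 and 535 TPM in wild-type libraries, while Mesp1 was at most 0.177 TPM and Kdr at most 0.211 TPM in any library. Fgf8 was at 51.8 and 42.3 TPM in Stk40-/- and at 97.8 and 82.6 TPM in wild-type libraries. Of 12 streak and mesoderm markers 6 were tested and 5 of these lay below wild type in both Stk40-/- libraries, as did 16.6% of all tested genes. Msgn1 and Evx1, among the 5, averaged under 1 TPM in Stk40-/- cells and entered the test only through their wild-type level. The summed level of the 12, mostly T, was 415 and 265 TPM in Stk40-/- libraries, against 1256 and 638 TPM in wild-type libraries. The 8 pluripotency markers summed to 1036 and 1029.6 TPM in Stk40-/- and to 1069 and 1184 TPM in wild-type libraries. Sums for the 7 neural markers were 94.9 and 134 TPM in Stk40-/- and 81.7 and 88.4 TPM in wild type. The 10 trophoblast markers summed to 39.1 and 30.4 TPM in Stk40-/- and to 46.9 and 49.6 TPM in wild type, and the 9 endothelial and blood markers to at most 10.6 TPM in any library. The groups did not overlap in the mesoderm, pluripotency, neural and trophoblast sums, but single markers within a list differed. Without Cdx2, at 1.46 and 0.904 TPM in Stk40-/- and 11.1 and 9.03 TPM in wild-type libraries, the trophoblast sums overlap. Without Dppa5a, the pluripotency sums are higher in the Stk40-/- libraries, not lower. Of the 8 pluripotency markers, 2 lay above wild type in both Stk40-/- libraries (27.5% of all tested genes), 2 below (16.6%) and 4 overlapped. Dppa5a was at 150 and 160 TPM in Stk40-/- and 290 and 326 TPM in wild-type libraries. Nanog was at 219 and 166 TPM in Stk40-/- and 113 and 132 TPM in wild-type libraries. Nes and Tfap2c, the most abundant neural and trophoblast markers, overlapped. The part of such cells in the matrix results was not tested.

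No matrix or integrin gene passed the test. Of the 82 genes, 45 reached the minimum of 1 TPM on average and were tested within a fit over 15739 genes. In limma, 0 of these 45, and 0 of all tested genes, had an adjusted p under 0.05 in either direction (0.00% higher and 0.00% lower), and the smallest adjusted p was 0.289 among the 45 and 0.114 over all genes. At an unadjusted p under 0.05, 2 of the 45 were higher (Hspg2 and Itga3), against 6.48% of all tested genes, and 2 were lower (Col1a1 and Fn1), against 4.51%. With 2 libraries per group, exact permutation of a single value cannot go below p = 0.333.

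As one set, the genes went both ways. The groups did not overlap for 22 of the 45, next to 44.0% of all tested genes. Both Stk40-/- values exceeded both wild-type values in 12 (27.5% of all tested genes) and were under them in 10 (16.6%). The median log2 fold change of the 45 was 0.01, beside 0.07 for all tested genes. Scaling the libraries by median of ratios gave 8 above and 11 below among the 45, and 21.0% above and 21.6% below among all tested genes. With that scaling the groups overlapped for Col4a1, Lama5, Col18a1 and Col7a1, and Col6a2 joined those below. With mitochondrial and ribosomal protein genes left out of the totals, Lamb1 overlapped, Col9a3 joined those above and Col6a2 those below. By role and with TPM as deposited, 7 of the 12 above were basement membrane genes, which made up 15 of the 45. Fibrillar collagens, 8 of the 45, were 5 of the 10 below. Some of the lower genes, Col3a1, Col5a2 and Itgb3, averaged under 1 TPM in Stk40-/- cells and entered the test through their wild-type level.

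**Figure D1:**
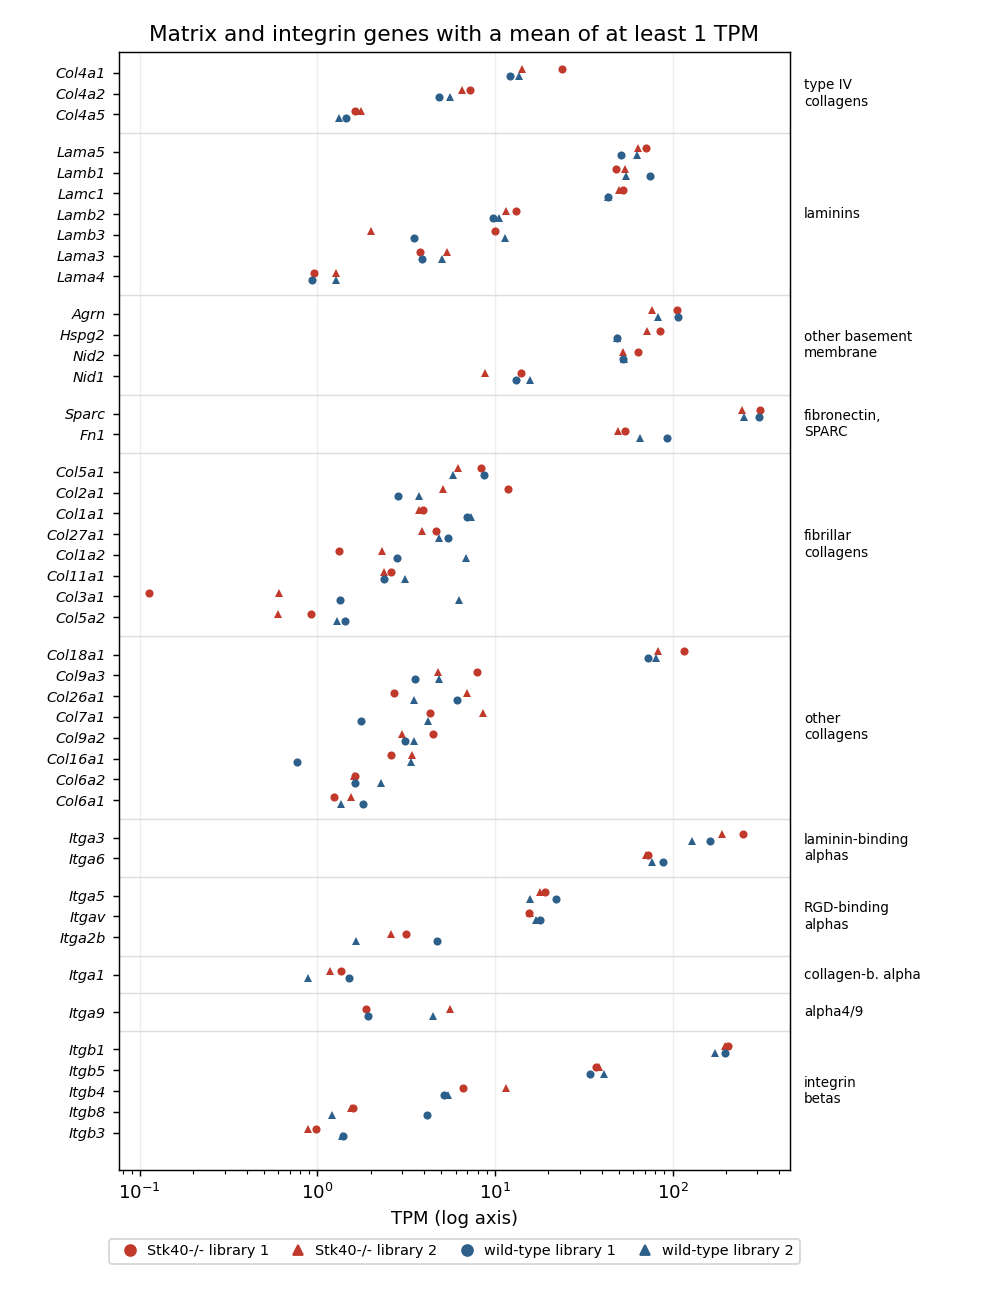
TPM (log axis) of 44 tested matrix and integrin genes, grouped by role, with Stk40-/- libraries in red above wild-type libraries in blue, circles for library 1 and triangles for library 2. Sparc, Itgb1 and Itga3 have the highest means, and the fibrillar collagens lie more than 10-fold below them.

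The highest levels belonged to a few genes. Sparc, a calcium-binding glycoprotein that associates with collagen, averaged 279 ± 44.3 TPM in Stk40-/- and 280.1 ± 37.3 TPM in wild-type cells (log2 fold change -0.01, SE 0.16). Itgb1, the beta subunit shared by most matrix-binding integrins, averaged 201 ± 5.83 TPM in Stk40-/- and 185 ± 17.4 TPM in wild-type cells, and its groups overlapped. Means of 3 genes reached 100 TPM, 10 lay between 20 and 100 TPM, 13 between 5 and 20 TPM, 19 between 1 and 5 TPM and 37 below 1 TPM. The summed TPM of all 82 genes was 1673 and 1424 in the Stk40-/- libraries, against 1515 and 1367 in the wild-type libraries, so the groups overlapped.

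Type IV collagen genes stood above wild type in each tested case. Col4a1 and Col4a2 encode the chains of the widespread type IV network, and Col4a5 a chain of a more restricted one. Col4a1 was at 23.8 and 14.1 TPM in Stk40-/- libraries, against 12.2 and 13.6 TPM in wild-type libraries, and its log2 fold change of 0.48 (SE 0.28, limma adjusted p = 0.588) was 0.12 without Stk40-/- library 1. Col4a2 had 7.24 and 6.56 TPM in Stk40-/- libraries, against 4.86 and 5.57 TPM in wild-type libraries (log2 fold change 0.35, SE 0.20, limma adjusted p = 0.582). For both genes the groups did not overlap, although Stk40-/- library 2 exceeded the higher wild-type library by little in Col4a1, and with median-of-ratios scaling the Col4a1 groups overlapped. Col4a5 was low, at 1.64 and 1.76 TPM in Stk40-/- and 1.44 and 1.33 TPM in wild-type libraries. Col4a3, Col4a4 and Col4a6 were below the 1 TPM filter.

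Col4a1 and Col4a2 lie head to head on chromosome 8 (GRCm38; Col4a1 at 11198423 to 11312826 on the minus strand, Col4a2 at 11312805 to 11449287 on the plus strand). Their annotated first exons overlap by 22 bases, shown because these bases belong to both genes and both genes stood above wild type. The sequence (RefSeq, GRCm38.p6, chr8:11312801-11312830, plus strand) has in capitals the bases from the start of Col4a2 to that of Col4a1.
Col4a1 and Col4a2: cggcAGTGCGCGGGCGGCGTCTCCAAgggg
The ratio of Col4a1 to Col4a2 TPM was 3.29 and 2.16 in Stk40-/- libraries and 2.51 and 2.45 in wild-type libraries. The other type IV pairs are also head to head, Col4a4 with Col4a3 71 bases apart on chromosome 1 and Col4a6 with Col4a5 1308 bases apart on the X chromosome.

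The chief laminin chains were alpha5, beta1 and gamma1. Lama5 held 92.8% and 89.4% of the summed laminin alpha TPM in Stk40-/- libraries and 89.1% and 89.3% in wild-type libraries. Lama1, whose chain is the main alpha chain of the earliest mouse basement membranes, was at 0.754 and 0.861 TPM in Stk40-/- and at 0.954 and 0.727 TPM in wild-type libraries, below the filter. Lama5 was at 70.4 and 63.6 TPM in Stk40-/- libraries, against 51.5 and 63.2 TPM in wild-type libraries (log2 fold change 0.23, SE 0.14). The nearest values of the groups were almost equal, and the log2 fold change was 0.082 without wild-type library 1. Lamc1 had 52.5 and 49.9 TPM in Stk40-/- libraries, against 43.0 and 43.2 TPM in wild-type libraries (log2 fold change 0.24, SE 0.09, limma adjusted p = 0.469). Its groups stood apart by more than the spread inside either, and the log2 fold change stayed between 0.18 and 0.28 over the alternatives run. Lamb2, a less abundant beta chain, was at 13.1 and 11.6 TPM in Stk40-/- libraries, against 9.70 and 10.5 TPM in wild-type libraries.

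Lamb1 went the other way. It was at 47.8 and 54.3 TPM in Stk40-/- libraries, against 74.9 and 54.5 TPM in wild-type libraries (log2 fold change -0.32, SE 0.19, limma adjusted p = 0.586). Wild-type library 1 set most of that difference, since the log2 fold change was -0.10 without it. Within libraries, Lamb1 over Lamc1 was 0.911 and 1.09 in Stk40-/- and 1.74 and 1.26 in wild type, while Lama5 over Lamc1 overlapped between the groups at 1.34 and 1.27 in Stk40-/- and 1.20 and 1.46 in wild type. Lamb2 made up 18.5% and 17.1% of laminin beta TPM in Stk40-/- libraries and 11.0% and 13.8% in wild-type libraries. Of the 11 laminin genes 8 were tested, with 3 above (27.5% of all tested genes), 1 below (16.6%) and 4 overlapping. Their log2 fold changes had a median of 0.12, which became -0.0072 with wild-type library 1 left out and 0.29 with Stk40-/- library 2 left out. The less abundant Lama3 and Lamb3 overlapped between groups, with means over the 4 libraries of 4.51 and 6.74 TPM.

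**Figure D2:**
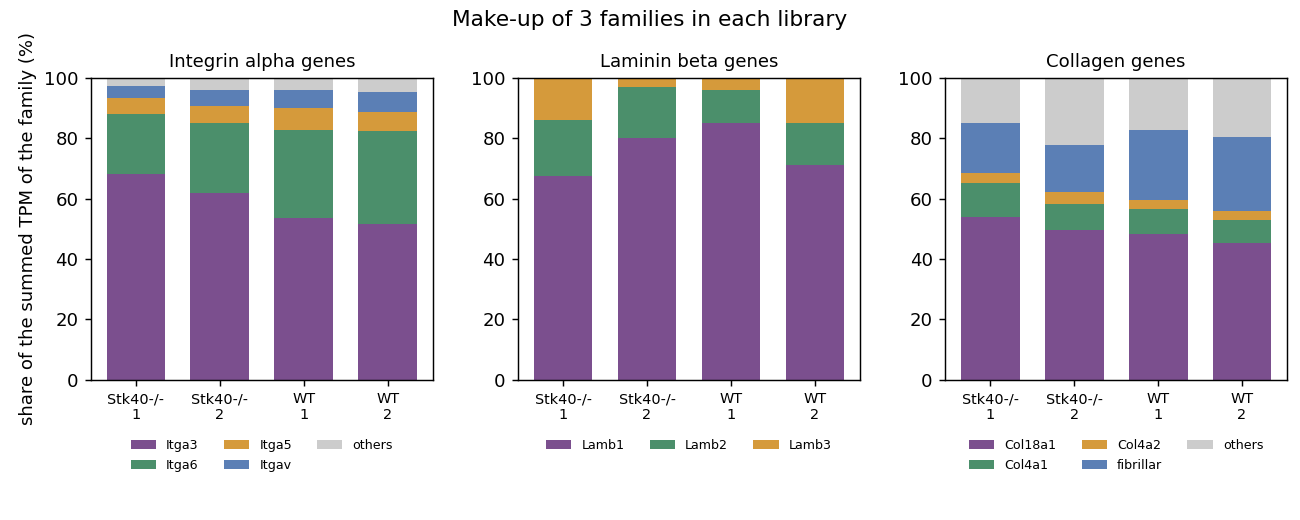
Share of the summed TPM (%, stacked from 0 to 100) held by each gene within the integrin alpha, laminin beta and collagen families, for each of the 2 Stk40-/- and 2 wild-type (WT) libraries, with "others" for the remaining genes of the family. Itga3 takes 68.1% and 61.9% of integrin alpha TPM in Stk40-/- libraries, against 53.7% and 51.7% in wild-type libraries, and the fibrillar collagens take 16.5% and 15.7% of collagen TPM, against 22.9% and 24.5%. The summed TPM of the fibrillar collagens overlaps between the groups.

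Perlecan had the smallest p of all 45 genes. Hspg2, which encodes this large heparan sulphate proteoglycan of basement membranes, was at 85.1 and 72.2 TPM in Stk40-/- libraries, against 48.97 and 48.94 TPM in wild-type libraries. Both Stk40-/- libraries were far above the wild-type values, which hardly differed from each other (log2 fold change 0.67, SE 0.12, limma adjusted p = 0.289). Over the alternatives run the log2 fold change ranged from 0.55 to 0.79 and the adjusted p from 0.277 to 0.732. Agrn, which encodes agrin, another heparan sulphate proteoglycan, did not follow: it was at 105 and 76.5 TPM in Stk40-/- and at 107 and 83.3 TPM in wild-type libraries. The ratio of Hspg2 to Agrn was 0.808 and 0.943 in Stk40-/- libraries, against 0.459 and 0.587 in wild-type libraries. The nidogens, which link laminin to type IV collagen, overlapped between groups, with Nid2 at 64.0 and 52.5 TPM in Stk40-/- and 52.4 and 53.3 TPM in wild type, and Nid1 at 14.0 and 8.84 TPM in Stk40-/- and 13.2 and 15.7 TPM in wild type.

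The upstream sequences of Hspg2 and Lama5 are shown as those of 2 abundant genes of the perlecan and laminin groups that stood above wild type. Capitals mark the GC box GGGCGG, the recognition core of the SP1 family, on either strand (5 matches in Hspg2 and 4 in Lama5). The windows are from RefSeq on GRCm38.p6, Hspg2 at chr4:137468553-137468752 on the plus strand and Lama5 at chr2:180225860-180226109 on the minus strand.
Hspg2: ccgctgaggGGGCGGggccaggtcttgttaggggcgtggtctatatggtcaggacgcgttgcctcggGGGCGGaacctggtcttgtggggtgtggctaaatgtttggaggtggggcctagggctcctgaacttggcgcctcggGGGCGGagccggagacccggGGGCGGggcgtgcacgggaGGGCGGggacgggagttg
Lama5: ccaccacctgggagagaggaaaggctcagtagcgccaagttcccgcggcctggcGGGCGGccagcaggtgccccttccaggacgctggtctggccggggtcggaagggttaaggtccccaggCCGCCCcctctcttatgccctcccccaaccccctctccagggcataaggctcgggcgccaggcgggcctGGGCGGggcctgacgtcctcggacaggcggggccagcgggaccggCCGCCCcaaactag
A window of 300 bases around a start (250 before to 50 after) was matched by symbol for 60 of the 82 genes. GGGCGG on either strand was present for 22 of the 31 tested matrix and integrin genes with a window (71.0%) and for 70.5% of 9946 tested protein-coding genes. Over all genes with a window, tested or not, it was present for 35 of 60 (58.3%) and for 38.2% of 27025.

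With the nidogens, perlecan and agrin included, 15 of 21 basement membrane genes were tested. Of these, 7 were above wild type in both Stk40-/- libraries (27.5% of all tested genes), 1 was below (16.6%) and 7 overlapped, and the median log2 fold change was 0.18. With median-of-ratios scaling Col4a1 and Lama5 were no longer among the 7. Primitive and parietal endoderm, cell types that secrete large amounts of laminin and type IV collagen in the mouse embryo, were checked by 16 markers. These summed to 213 and 193 TPM in Stk40-/- libraries, against 421 and 362 TPM in wild-type libraries, mostly Rhox5 and Fst. Rhox5 was at 160 and 143 TPM in Stk40-/- and 288 and 263 TPM in wild-type libraries. Fst was at 40.3 and 35.9 TPM in Stk40-/- and 120 and 82.3 TPM in wild-type libraries. Without Rhox5 and Fst the sums overlap between the groups. Ttr and Apoa1 were listed at 0 in all 4 libraries, and Gata6, Sox7 and Sox17 did not exceed 0.239 TPM in any. Gata4 was at 1.30 and 3.88 TPM in Stk40-/- and at 0.656 and 3.77 TPM in wild-type libraries, and Dab2 at 5.36 and 4.85 TPM in Stk40-/- and 6.46 and 5.93 TPM in wild-type libraries. The part of endoderm cells in the basement membrane values was not tested.

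Col18a1 and Col7a1, which also encode basement membrane collagens, were counted with the other collagens. Col18a1, a heparan sulphate proteoglycan collagen and the most abundant collagen gene here, was at 116 and 82.6 TPM in Stk40-/- libraries, against 72.3 and 81.0 TPM in wild-type libraries (log2 fold change 0.35, SE 0.19, limma adjusted p = 0.567). Its groups were barely apart, its log2 fold change was 0.11 without Stk40-/- library 1, and the groups overlapped with median-of-ratios scaling. Col7a1, the anchoring fibril collagen, was at 4.31 and 8.57 TPM in Stk40-/- libraries, against 1.77 and 4.20 TPM in wild-type libraries (log2 fold change 0.91, SE 0.48). The replicates of Col7a1 differed about as much as the groups, and its log2 fold change was 0.48 without Stk40-/- library 2 and 0.45 without wild-type library 1. Of 27 collagen genes outside the fibrillar and type IV groups 8 were tested, with a median log2 fold change of 0.23, and 6 of them overlapped between groups.

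**Figure D3:**
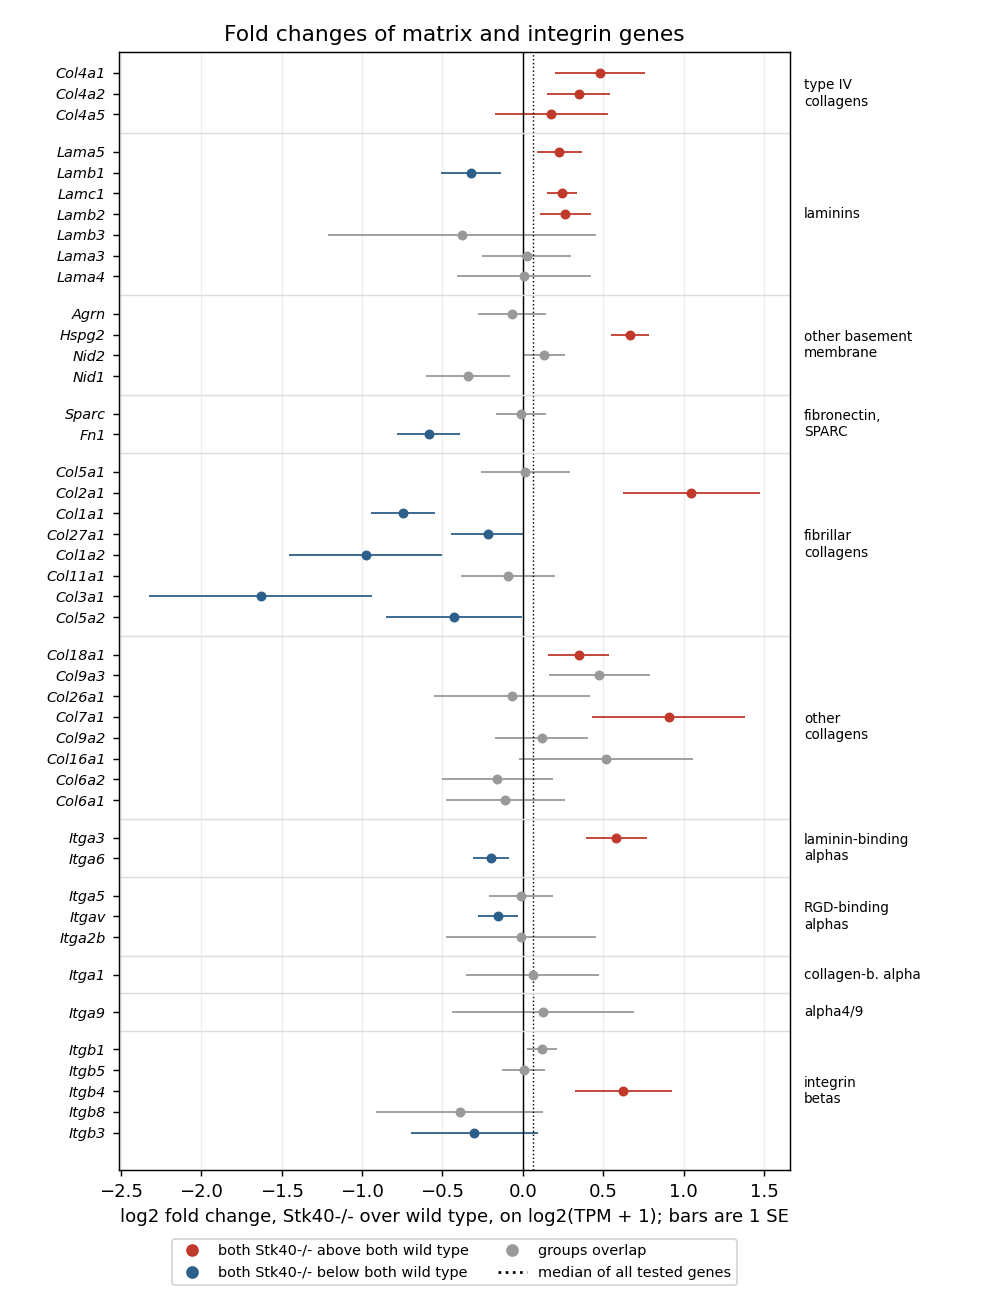
Log2 fold change of 44 tested matrix and integrin genes (Stk40-/- over wild type on log2(TPM + 1), bars 1 SE, n = 2 per group), in red where the Stk40-/- libraries both exceed the wild-type ones, blue where both lie below and grey where the groups overlap. The dotted line is the median of all tested genes, 0.07. Type IV collagens lie right of it, and Col1a1, Col1a2, Col3a1, Col5a2 and Fn1 lie left of 0.

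Several fibrillar collagens stood below wild type, among them the genes of both type I chains. Of 11 genes 8 were tested, 5 of them below wild type in both Stk40-/- libraries (16.6% of all tested genes), 1 above (27.5%) and 2 overlapping, with a median log2 fold change of -0.32. Col3a1 and Col5a2 are among the 5 and passed the filter only through their wild-type level, which leaves Col1a1, Col1a2 and Col27a1, and the median was 0.01 among the fibrillar collagens averaging 5 TPM or more. Col1a1, the main chain of type I collagen, was at 3.96 and 3.74 TPM in Stk40-/- libraries, against 6.98 and 7.29 TPM in wild-type libraries. The replicates agreed closely in each group (log2 fold change -0.75, SE 0.20, limma adjusted p = 0.400), and the log2 fold change ranged from -0.89 to -0.71 over the alternatives run. Its partner chain gene Col1a2 was at 1.33 and 2.31 TPM in Stk40-/- libraries, against 2.80 and 6.87 TPM in wild-type libraries (log2 fold change -0.98, SE 0.48), with wild-type library 2 far above the rest. Without wild-type library 2 the log2 fold change of Col1a2 was -0.45.

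Col3a1, which encodes the collagen that accompanies type I in soft tissues, was at 0.113 and 0.609 TPM in Stk40-/- libraries, against 1.35 and 6.31 TPM in wild-type libraries. It had the largest negative log2 fold change among the tested matrix genes with all libraries, -1.63 (SE 0.69, limma adjusted p = 0.491), and -0.81 without wild-type library 2. Col5a2, a chain of type V collagen, which starts the assembly of type I fibrils, lies 24.6 kb from Col3a1 on chromosome 1, tail to tail, and was at 0.924 and 0.597 TPM in Stk40-/- libraries, against 1.43 and 1.29 TPM in wild-type libraries. Col5a1, its partner chain gene, overlapped between groups at 8.35 and 6.21 TPM in Stk40-/- and 8.71 and 5.80 TPM in wild type. Col27a1 was at 4.63 and 3.89 TPM in Stk40-/- libraries, against 5.41 and 4.82 TPM in wild-type libraries.

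The region before the Col3a1 start is shown as a contrast in sequence to the promoters above, since it holds no GC box in its window. GC boxes did occur in windows of Col1a2, Col27a1, Lamb1 and Itgav, which stood below wild type, and of Agrn, which overlapped. A link between GC boxes and the direction of a gene was not tested. Capitals mark the only TATAAA in it (RefSeq, GRCm38.p6, chr1:45311288-45311537, plus strand), on the gene's strand and 117 bases before the start. TATAAA on either strand was present in the 300-base window of 5 of 60 matrix and integrin genes (8.33%) and of 15.7% of all 27025 genes with a window.
Col3a1: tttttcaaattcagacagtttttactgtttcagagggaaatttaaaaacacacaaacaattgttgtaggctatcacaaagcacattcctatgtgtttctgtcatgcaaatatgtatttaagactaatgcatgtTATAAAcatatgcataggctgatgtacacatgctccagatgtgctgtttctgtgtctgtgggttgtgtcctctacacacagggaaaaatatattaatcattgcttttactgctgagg

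Col2a1 was the fibrillar collagen that stood above wild type. This gene, known for cartilage and also transcribed in early embryonic epithelia of the mouse, was at 11.8 and 5.11 TPM in Stk40-/- libraries, against 2.85 and 3.74 TPM in wild-type libraries. Its log2 fold change of 1.05 (SE 0.43, limma adjusted p = 0.481) was 0.52 without Stk40-/- library 1, which was the high sample. Within the collagen family the fibrillar genes together held 16.5% and 15.7% of the TPM in Stk40-/- libraries, against 22.9% and 24.5% in wild-type libraries. Their summed TPM overlapped between groups, at 35.3 and 26.0 in Stk40-/- and 34.4 and 43.8 in wild-type libraries. The shares therefore also depend on the other collagens, of which Col18a1 was the most abundant.

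Some markers of fibroblasts, the cell type of the feeders and a main source of fibrillar collagen, were lower in Stk40-/- libraries too, while others overlapped. The 14 markers, of which 4 are also matrix genes listed below, summed to 316 and 328 TPM in Stk40-/- libraries, against 445 and 437 TPM in wild-type libraries, and their part in the collagen result was not tested. Of the 8 tested, 4 lay below wild type in both Stk40-/- libraries (16.6% of all tested genes) and 0 above (27.5%), with a median log2 fold change of -0.67. Pdgfrb, among the 4, and S100a4 averaged under 1 TPM in Stk40-/- cells and passed the filter only through their wild-type level. That leaves Tagln, Acta2 and Cd248 below, and the median includes both of those genes. Most of the sum was Tagln, a contractile protein gene also transcribed outside fibroblasts, at 268 and 282 TPM in Stk40-/- and 385 and 359 TPM in wild-type libraries. Acta2, the smooth muscle actin gene, was at 4.59 and 2.99 TPM in Stk40-/- and at 14.3 and 11.7 TPM in wild-type libraries, and Cd248 at 2.07 and 1.42 TPM in Stk40-/- and 4.32 and 4.38 TPM in wild-type libraries. Thy1 overlapped between groups at 13.1 and 9.17 TPM in Stk40-/- and 7.28 and 9.42 TPM in wild-type libraries. Of the other markers Mmp3 was listed at 0 in all 4 libraries, Lum did not exceed 0.079 TPM and Postn did not exceed 0.331 TPM. S100a4 was listed at 0 in 3 libraries and at 16.7 TPM in wild-type library 2, the library in which Col1a2 and Col3a1 were highest.

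Fibronectin was lower in both Stk40-/- libraries. Fn1 was at 54.2 and 49.6 TPM in Stk40-/- libraries, against 93.3 and 65.7 TPM in wild-type libraries, and the wild-type replicates differed more than the Stk40-/- ones (limma adjusted p = 0.439). The log2 fold change of -0.59 (SE 0.19) was -0.34 with wild-type library 1 left out and -0.84 with library 2 left out. Among its receptors, Itga5, the subunit of the main fibronectin receptor, overlapped between groups at 19.2 and 17.9 TPM in Stk40-/- and 22.1 and 15.8 TPM in wild type. Itgav was at 15.6 and 15.7 TPM in Stk40-/- libraries, against 18.0 and 17.1 TPM in wild-type libraries, a small difference with no overlap (log2 fold change -0.15, SE 0.13). Itga8, an RGD-binding subunit known from kidney development, was below the filter at 0.176 and 0.369 TPM in Stk40-/- and 1.46 and 1.03 TPM in wild-type libraries.

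The integrin alpha genes were led by the laminin receptors, and the 2 that passed the filter stood on opposite sides of wild type. Itga3 was at 249 and 189 TPM in Stk40-/- libraries, against 163 and 129 TPM in wild-type libraries (log2 fold change 0.58, SE 0.19, limma adjusted p = 0.435). The lower Stk40-/- value exceeded the higher wild-type value, and the log2 fold change stayed between 0.38 and 0.78 over the alternatives run. Itga6 was at 72.8 and 70.5 TPM in Stk40-/- libraries, against 88.9 and 76.1 TPM in wild-type libraries (log2 fold change -0.20, SE 0.11), and without wild-type library 1 the value was -0.09. The ratio of Itga3 to Itga6 within a library, which no scaling between libraries can alter, was 3.42 and 2.68 in Stk40-/- libraries, against 1.84 and 1.69 in wild-type libraries. Itga3 thereby held 68.1% and 61.9% of all integrin alpha TPM in Stk40-/- libraries, against 53.7% and 51.7% in wild-type libraries.

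Itga3 lies on chromosome 11 (GRCm38, 95044474 to 95076801, minus strand), 91.4 kb from Col1a1 and tail to tail with it, and these neighbours stood on opposite sides of wild type. A second RefSeq start of Itga3, 7516 bases downstream of the other, is followed at base 13 by TGAATCA. It matches TGANTCA, a loose form of the AP-1 motif of JUN and FOS dimers that allows any base at the centre. The match has A there, not the C or G of the strict motif. The first 30 bases from that start are shown because the series concerns c-JUN (RefSeq, GRCm38.p6, chr11:95069169-95069198, minus strand), with the match in capitals.
Itga3: agggctggtgccTGAATCActggcttgctc
TGANTCA, which reads the same on both strands, was present in windows of Itga3, Itga9 and Col6a1, 3 of 31 tested matrix and integrin genes with a window (9.68%), next to 5.96% of 9946 tested protein-coding genes. Over all genes with a window the shares were 5% of 60 and 8.97% of 27025. TGACGTCA, the related CRE motif, also the same on both strands, was in the window of 1 of the 60, Col24a1 (1.67%), next to 2.03% of all genes with a window. A match of letters is no evidence of binding.

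Among the beta subunits, Itgb1 held 81.4% and 78.6% of the TPM in Stk40-/- libraries and 81.0% and 77.3% in wild-type libraries. Itgb5, an RGD-binding partner of alphav, was at 37.0 and 38.5 TPM in Stk40-/- and 34.2 and 41.3 TPM in wild-type libraries. Itgb4, the partner of alpha6 in hemidesmosomes, was at 6.58 and 11.5 TPM in Stk40-/- libraries, against 5.18 and 5.45 TPM in wild-type libraries. Its log2 fold change of 0.62 (SE 0.30, limma adjusted p = 0.526) was 0.26 without Stk40-/- library 2. Itgb3, another alphav partner, was at 0.981 and 0.890 TPM in Stk40-/- and 1.39 and 1.38 TPM in wild-type libraries. Over all 12 tested integrin genes, 2 were above wild type (27.5% of all tested genes), 3 below (16.6%) and 7 overlapped, and the median log2 fold change was -0.00.

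Collagen-binding integrins and integrins of blood cells were scarce. Itga1 had 1.35 and 1.18 TPM in Stk40-/- and 1.50 and 0.888 TPM in wild-type libraries, and Itga2, Itga10 and Itga11 were below the filter. The platelet subunit gene Itga2b overlapped between groups, with means of 2.87 ± 0.404 TPM in Stk40-/- and 3.19 ± 2.19 TPM in wild-type cells. Itga9 was at 1.89 and 5.59 TPM in Stk40-/- and at 1.93 and 4.45 TPM in wild-type libraries, so its replicates differed more than its groups. Itgb2, the leukocyte beta subunit, did not exceed 0.281 TPM in any library.

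The other 37 genes had means below 1 TPM and were not tested, 13 of them below 0.1 TPM. Lama2, the laminin alpha chain of muscle, was at 0 and 0.0727 TPM in Stk40-/- and at 0.516 and 0.575 TPM in wild-type libraries. Col6a3 was listed at 0 in both Stk40-/- libraries and at 0.0351 and 0.329 TPM in wild-type libraries, while its partner chain genes Col6a1 and Col6a2 overlapped between groups at means of 1.49 and 1.79 TPM over the 4 libraries. Col24a1, a fibrillar collagen, was at 0.471 and 0.467 TPM in Stk40-/- and at 1.97 and 0.779 TPM in wild-type libraries. At these levels no fold change was drawn.

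Genes that act on or around the matrix were read from 5 lists. Of 20 tested genes for collagen folding and modification, 10 were above wild type, 4 below and 6 overlapped (median log2 fold change 0.18), where 27.5% and 16.6% of all tested genes were above and below. These shares are also the background for the other 4 lists. Loxl3, among the 10 above, averaged under 1 TPM in wild-type cells and entered the test only through its Stk40-/- level. Pxdn, a peroxidase that cross-links type IV collagen, was at 47.5 and 44.3 TPM in Stk40-/- libraries, against 33.6 and 34.8 TPM in wild-type libraries (log2 fold change 0.41, SE 0.10, limma adjusted p = 0.391). The lysyl hydroxylase gene Plod2 was at 47.7 and 43.0 TPM in Stk40-/- libraries, against 37.9 and 30.9 TPM in wild-type libraries. Serpinh1, a collagen chaperone, was at 144 and 122 TPM in Stk40-/- libraries, against 180.1 and 149 TPM in wild-type libraries, and the prolyl isomerase gene Ppib at 229 and 233 TPM in Stk40-/- libraries, against 278 and 259 TPM in wild-type libraries. P4hb, a subunit of prolyl hydroxylase and the most abundant gene of the list, overlapped between groups at 378 and 398 TPM in Stk40-/- and 424 and 395 TPM in wild-type libraries.

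**Figure D4:**
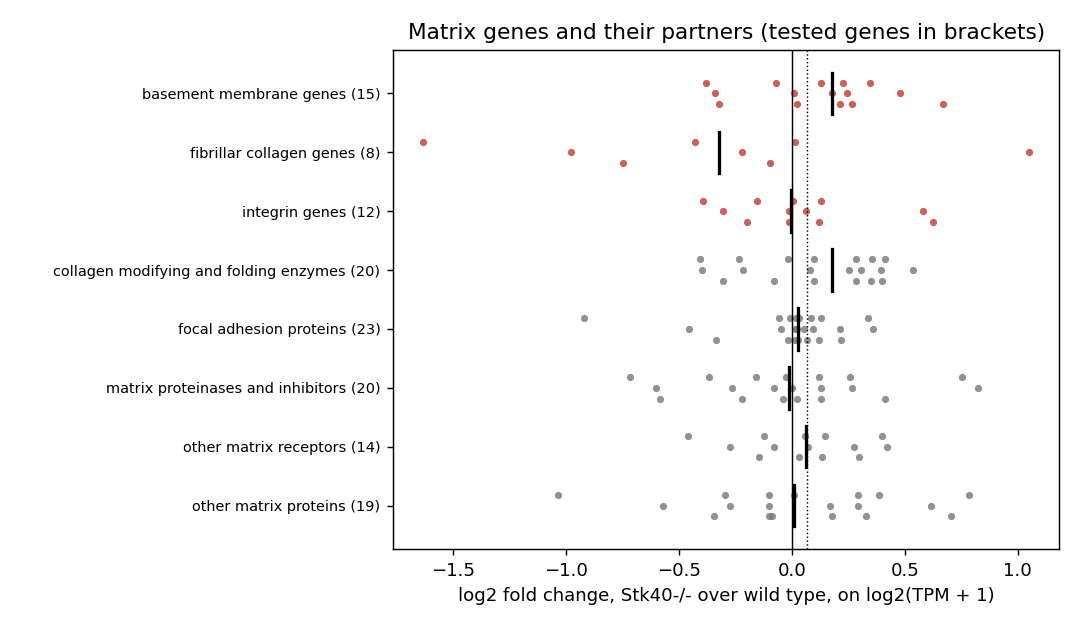
Log2 fold changes (Stk40-/- over wild type on log2(TPM + 1)) of the tested basement membrane, fibrillar collagen and integrin genes in red and of 5 lists of partner genes in grey, 1 point per gene, with the median of each list as a thick bar, the number tested in brackets and the median of all tested genes as a dotted line. The medians are 0.18 for basement membrane genes, -0.32 for fibrillar collagens and 0.18 for collagen-modifying enzymes.

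Focal adhesion genes, whose products couple integrins to actin, were nearly level between the groups. Of 23 tested, 6 were above wild type, 4 below and 13 overlapped (median log2 fold change 0.03). Actn4, which encodes an actin-crosslinking actinin, was at 204 and 193 TPM in Stk40-/- and 201 and 189.8 TPM in wild-type libraries, and the related Actn1 at 142 and 137 TPM in Stk40-/- and 144 and 137 TPM in wild-type libraries. Lims1, an adaptor bound to the integrin-linked kinase, was at 46.9 and 53.1 TPM in Stk40-/- libraries, against 40.9 and 37.7 TPM in wild-type libraries (log2 fold change 0.34, SE 0.12).

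Matrix proteinases and their inhibitors were split, with 4 above, 4 below and 12 overlapping of 20 tested (median log2 fold change -0.01). Mmp2, a gelatinase, was at 10.7 and 12.5 TPM in Stk40-/- libraries, against 18.6 and 17.1 TPM in wild-type libraries (log2 fold change -0.58, SE 0.15, limma adjusted p = 0.400). Timp3, an inhibitor bound to the matrix, was at 3.03 and 4.73 TPM in Stk40-/- libraries, against 6.96 and 6.81 TPM in wild-type libraries. Of 14 tested other matrix receptors 3 were above, 2 below and 9 overlapped (median 0.06), and Sdc1, a heparan sulphate co-receptor, was at 29.5 and 31.4 TPM in Stk40-/- libraries, against 22.9 and 22.8 TPM in wild-type libraries.

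Among 19 tested other matrix proteins 3 were above, 4 below and 12 overlapped (median 0.01). The genes above were 2 of the CCN family and osteopontin. Cyr61 (Ccn1) was at 304 and 302 TPM in Stk40-/- libraries, against 263 and 221 TPM in wild-type libraries. Ctgf (Ccn2) was at 131 and 90.8 TPM in Stk40-/- libraries, against 64.2 and 69.0 TPM in wild-type libraries (log2 fold change 0.71, SE 0.20, limma adjusted p = 0.401). Spp1, which encodes osteopontin, was at 31.9 and 32.4 TPM in Stk40-/- libraries, against 25.3 and 16.8 TPM in wild-type libraries. Bgn, a small proteoglycan that binds fibrillar collagen, was at 1.56 and 1.11 TPM in Stk40-/- libraries, against 4.68 and 2.99 TPM in wild-type libraries (log2 fold change -1.03, SE 0.35).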

How the data were processed

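RNA was measured in 2 Stk40-/- and 2 wild-type libraries, grouped and numbered by their titles. The authors deposited TPM, as named per the file headers; every library totalled 1000000. CASAVA 1.7 and Salmon 0.8.2 and the human build hg38 are named per the submitters' processing notes, although the gene IDs are mouse Ensembl IDs; the annotation is not named in the sources used here. Per the labels' protocols, polyadenylated RNA was sequenced on either of 2 instruments, without saying which libraries went to which, so no batch term was fitted. Salmon splits reads among similar transcripts. There were 0 per-sample columns left unused.

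The 15739 genes averaging 1 TPM or more entered limma 3.58.1 (R 4.3.3) as log2(TPM + 1) values (empirical Bayes with an intensity trend, Benjamini-Hochberg adjustment over all tested genes, threshold 0.05), and the procedure was tested on simulated data. Positions came from GENCODE vM21 (GRCm38), matched by Ensembl ID without version for all 82 genes (67 with the version), and promoter windows from RefSeq GRCm38.p6. The genes and the lists were chosen with earlier results of these data known. Genes named were those averaging 20 TPM or more, the 8 with the smallest p, the 4 per direction with the largest fold change, the highest and lowest of each role group, and up to 5 per partner or marker list; other genes named, such as those of the same family or next to a named gene, were chosen after their values were seen. 1 tested gene enters the counts but is not reported here by name. Collagens in neither the fibrillar nor the type IV group were pooled. Alternatives were pseudocounts of 0.1 and 0.01, filters at a mean above 0 and at 5 TPM, 2 other scalings, a replicate block, no trend, and each library left out.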

Additional observations from a re-analysis of the deposited data

How the results depend on the processing

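Under all 12 alternatives 0 matrix and integrin genes and 0 genes overall passed in either direction; the replicate block (0 passing) rests on a shared number only, since same-numbered libraries deviated with a correlation of 0.0893. The median log2 fold change of the tested matrix and integrin genes, 0.01, was 0.13 at a mean of at least 5 TPM and ranged from -0.015 to 0.11 with 1 library left out. Of the 45 genes, 26 kept their sign under every alternative run for them, 14 positive and 12 negative. Among named genes the sign turned with a pseudocount of 0.1 for Itga2b (0.028) and with 0.01 for Itga2b (0.035). With median-of-ratios scaling the sign turned for Col5a1 (-0.041), Lama4 (-0.024), Itgb5 (-0.057) and Lama3. With 1 library left out, signs also turned within the following ranges: Agrn -0.30 to 0.16, Itga9 -0.47 to 0.72, Lama4 -0.11 to 0.13, Col6a1 -0.23 to 0.016, Sparc -0.17 to 0.15, Itga2b -0.57 to 0.55, Itga5 -0.24 to 0.22, Itgb5 -0.13 to 0.14, Col5a1 -0.24 to 0.27, Itga1 -0.14 to 0.26, Nid2 -0.0085 to 0.27, Lamb3 -1.31 to 0.55, Itgb8 -0.999 to 0.21, Col26a1 -0.62 to 0.49 and Lama3 -0.19 to 0.23. The laminin median, 0.12, ranged from -0.0072 to 0.29. The cause was not tested. With 1 library left out, the lone library of its group is assumed to vary like the other group. The fibrillar collagen median, -0.32, was 0.01 at a mean of at least 5 TPM, where fewer of its genes were left. Median-of-ratios scaling moved the median of all tested genes by -0.06. TPM keeps no depth, which limits what can be said of genes near 1 TPM.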

Other observations

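Some matrix genes differed more between replicates than between genotypes. Lamb3 was at 9.99 and 2.01 TPM in Stk40-/- and at 3.50 and 11.5 TPM in wild-type libraries, so that Stk40-/- library 1 and wild-type library 2 were the high ones. Col26a1 showed the reverse order, at 2.70 and 6.96 TPM in Stk40-/- and 6.14 and 3.52 TPM in wild-type libraries. Itgb8 was at 1.58 and 1.55 TPM in Stk40-/- and at 4.13 and 1.21 TPM in wild-type libraries. Col11a2, Col4a3 and Col8a2 were each highest in wild-type library 2, at 3.22, 2.84 and 1.56 TPM, and did not exceed 0.606 TPM in the other 3 libraries.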
